A study of Mus musculus with 20 samples.

Results

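The genes described here are 10 markers and regulators of smooth muscle cells and myofibroblasts: Acta2, Tagln, Cnn1, Myh11, Actg2, Myl9, Ccn1, Ccn2, Postn and Tgfb1. They were taken by gene symbol from mouse arrays with 45037 probe sets, and 17097 gene symbols had a probe set of their own. Of the 10 genes, 9 had probe sets of their own, 12 in all, and 9 of these 12 passed the filter on dim probe sets. The only probe set of Tagln is annotated to Tagln and Pcsk7 together, so its signal is given under both names and credited to neither gene.

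The study placed 20 samples on 1 array each. CDS tumors (6 individual tumors) are CIC-DUX4 sarcomas that formed under the skin of Balb/c nude mice from embryonic mesenchymal cells (eMC) infected with the retrovirus pMYs-CIC-DUX4-IRES-GFP. ES tumors (6) are mouse Ewing sarcomas, also grown under the skin of Balb/c nude mice; the labels do not say how they were started. The samples called eMC CIC-DUX4 (4) are primary mesenchymal cells in culture 48 hours after infection with that virus, and those called eMC empty (4) are the same kind of cells 48 hours after infection with pMYs-IRES-GFP, so both carry a retrovirus with GFP. CIC-DUX4 joins the transcriptional repressor CIC to the transcription factor DUX4. Nude mice lack T cells but keep their own vessels, fibroblasts and muscle, so a tumor array can hold host RNA, while the cultures grew in medium with fetal bovine serum. No age of the animals was given in the sources used. Nothing in the labels tells whether each eMC sample came from its own culture, and a p-value then covers only the spread between these samples, which may be technical. In such bulk samples, fewer cells of a type and less RNA per cell cannot be told apart.

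Smooth muscle cells and myofibroblasts contract through filaments of smooth muscle actins (Acta2, Actg2) and smooth muscle myosin (heavy chain Myh11, regulatory light chain Myl9), with the actin-binding proteins calponin (Cnn1) and transgelin (Tagln). Many of these genes are driven by serum response factor (SRF), which binds the CArG box and is joined by myocardin or by the myocardin-related factors that respond to actin polymerization. The secreted CCN proteins Ccn1 and Ccn2 are well known targets of YAP and TAZ with the TEAD factors, and Ccn2, Postn and Acta2 are widely used readouts of TGF-beta, of which Tgfb1 is a ligand that turns fibroblasts into myofibroblasts.

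The promoters of 6 of the 10 genes were in the RefSeq table used (mouse build GRCm38.p6). The 250 bases before the transcription start of each promoter entry are printed, 5′ to 3′ on the gene's strand, for the 3 genes in which a searched motif was found. Capitals mark the match: GGAATG, the core TEAD motif, in Acta2 (chr19:34255374-34255623, minus strand), a CArG box in Myl9 (chr2:156775214-156775463, plus strand) and CATTCC, the reverse complement of GGAATG, in Ccn1 (chr3:145649986-145650235, minus strand).
Acta2: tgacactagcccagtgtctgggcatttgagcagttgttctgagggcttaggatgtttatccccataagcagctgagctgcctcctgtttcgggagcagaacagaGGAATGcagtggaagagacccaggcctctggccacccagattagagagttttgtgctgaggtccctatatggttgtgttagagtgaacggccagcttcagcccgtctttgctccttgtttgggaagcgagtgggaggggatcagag
Myl9: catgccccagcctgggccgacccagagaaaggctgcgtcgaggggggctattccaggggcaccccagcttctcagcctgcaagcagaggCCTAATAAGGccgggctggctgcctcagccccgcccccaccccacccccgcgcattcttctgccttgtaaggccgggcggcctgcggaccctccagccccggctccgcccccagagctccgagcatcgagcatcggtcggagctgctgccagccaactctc
Ccn1: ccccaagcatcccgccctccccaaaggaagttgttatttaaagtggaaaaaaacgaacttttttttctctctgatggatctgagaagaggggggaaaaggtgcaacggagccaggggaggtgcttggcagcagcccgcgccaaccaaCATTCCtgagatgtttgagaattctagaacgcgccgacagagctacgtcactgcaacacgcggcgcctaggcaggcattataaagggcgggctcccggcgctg
The matches lay at positions -146 to -141 in Acta2, -161 to -152 in Myl9 and -103 to -98 in Ccn1, counted back from the end of the printed window. That end is taken as the transcription start. In Acta2 and Myl9 it lies inside the span given for the gene (chr19:34240336-34255585 and chr2:156775408-156781657), so part of each window lies within that span. Both strands were searched. A CArG box was in 482 of all 32851 promoters (1.47%) and GGAATG on either strand in 4153 (12.6%), against 1 and 2 of the 6 genes. The CArG box was searched as CC, 6 of A or T, then GG, with no other base allowed. Near matches were not counted, such as ccctatatgg and ccttgtttgg in the Acta2 window, each 1 base away from that pattern. The counts therefore do not show that Acta2 lacks a CArG-like site. A match describes the letters of this window only.

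Signals are log2 values as deposited, returned to the linear scale, raised by a small offset and logged again. The arrays had been brought to a common trimmed mean (500.1 to 500.3), but their distributions differed; precision is limited by how many arrays there are. The median log2 signal of an array was between 1.85 and 3.88 on 17 arrays, and 5.63, 6.10 and 7.03 on CDS tumor 2, eMC CIC-DUX4 5 and eMC CIC-DUX4 6. An array's signals fall into a dim and a bright part with a dip between them, and a signal below the dip is called not well above background here; eMC CIC-DUX4 6 had no dip. The median change of all 26897 probe sets tested was 1.98 in eMC CIC-DUX4 against eMC empty, -0.94 in CDS tumors against eMC CIC-DUX4, 0.89 in CDS tumors and 0.41 in ES tumors against eMC empty, and 0.21 in CDS against ES tumors. Each change is therefore printed as deposited and, marked "quantile", after quantile normalization, where these medians lay between -0.07 and -0.01. Quantile normalization gives each rank the same value on every array, so the brightest probe sets keep almost no spread between arrays of alike rank. The 3′ minus 5′ log2 signal of the Actb control probe sets, which rises as RNA degrades, was 1.16 and 1.28 in CDS tumors 5 and 6, 0.31 to 0.77 in the other CDS tumors, 0.17 to 0.31 in ES tumors, 0.19 to 0.23 in eMC CIC-DUX4 and 0.13 to 0.20 in eMC empty. Its part in the results was not tested; values without CDS tumors 5 and 6 are given where a call or direction changes. A probe set was called where limma's Benjamini-Hochberg adjusted p was under 0.05 and the log2 change at least 1 in size.

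Acta2, alpha smooth muscle actin, was bright on every array and highest in eMC empty. Its log2 signal had a lowest value, median and highest value of 12.39, 13.00 and 13.81 in CDS tumors and of 12.07, 12.37 and 12.97 in ES tumors. In eMC CIC-DUX4 it was 13.50, 13.32, 13.73 and 13.78, and in eMC empty 15.55, 15.85, 15.34 and 14.99. All 4 eMC empty arrays lay above all 16 other arrays, and the CDS and ES tumors overlapped. This probe set's name carries a suffix for probes shared between transcripts, and the other Acta2 probe set lay below its array's own median on all 20 arrays, so it was not tested. On eMC CIC-DUX4 6, the array of the highest median (7.03), it had 5.34, against 1.44 to 1.57 on the other arrays of that group.

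Myl9, the regulatory light chain of smooth muscle and non-muscle myosin, showed the same order between the cultures. It was 11.36, 11.19, 11.49 and 11.53 in eMC CIC-DUX4 and 12.25, 12.28, 12.18 and 12.11 in eMC empty. CDS tumors ran from 4.65 through a median of 10.13 to 11.44, and ES tumors from 8.90 through 9.44 to 9.81, below every culture. Of the CDS tumors, 4 lay between 10.05 and 11.44, above all ES tumors. CDS tumors 5 (5.68) and 6 (4.65), the arrays of the highest Actb 3′ excess, were not well above background. Among the CDS tumors, these arrays also had the smallest shares of probe sets above the dip (11.65% and 20.14%). Small shares also occurred at a low Actb 3′ excess (0.13 to 0.20): eMC empty 4, 5, 6 and 7 had 14.23%, 11.13%, 19.3% and 26.95%. For eMC CIC-DUX4 5, 7 and 8 the share was 70.87%, 43.15% and 38.55%.

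The probe set shared by Tagln and Pcsk7 had 12.01, 11.83, 12.13 and 12.22 in eMC CIC-DUX4 and 13.83, 13.79, 13.51 and 13.23 in eMC empty. Its CDS tumors ran from 4.66 through 11.38 to 12.93 and its ES tumors from 9.73 through 10.88 to 12.07. CDS tumor 6 alone was below the dip, and the remaining CDS tumors (10.24 to 12.93) overlapped the ES tumors and eMC CIC-DUX4. Tagln encodes the actin-binding protein transgelin and Pcsk7 a proprotein convertase, and the probe set cannot say which was measured.

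Actg2, gamma smooth muscle actin of enteric muscle, varied widely within eMC empty and within both tumor types. It was 8.86, 9.03, 8.78 and 8.62 in eMC CIC-DUX4 but 4.91, 5.37, 6.97 and 9.12 in eMC empty. CDS tumors ran from 3.97 through 8.72 to 9.82 and ES tumors from 3.19 through 7.60 to 8.91. The low ends were again CDS tumors 5 (4.92) and 6 (3.97), with ES tumor 41 (3.19) far below the other ES tumors. On the quantile scale eMC CIC-DUX4 was lower (7.19, 7.49, 7.47 and 7.43) and eMC empty had the highest mean of the groups (8.10, 8.59, 8.60 and 8.78), so the order of the cultures depends on the scaling.

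The 2 most specific markers of mature smooth muscle in the set were dim. Myh11, smooth muscle myosin heavy chain, was below the dip on all CDS tumor, ES tumor and eMC empty arrays with both of its probe sets, and neither passed the filter. On eMC CIC-DUX4 its brighter probe set had 5.82, 7.05, 1.85 and 2.05, and on the quantile scale 3.22, 3.38, 2.53 and 2.92. Cnn1, calponin, was 6.15, 6.60, 2.21 and 2.22 in eMC CIC-DUX4, against 3.26, 3.43, 3.22 and 2.48 in eMC empty. Its CDS tumors ran from 2.19 through 3.21 to 5.60 and its ES tumors from 1.90 through 2.19 to 2.39. The values over 5 of Myh11 and Cnn1 were on CDS tumor 2 and on eMC CIC-DUX4 5 and 6, the 3 arrays of high median. Myocd, the smooth muscle coactivator of SRF, and Lmod1, a smooth muscle actin nucleator, were dim as well: Myocd lay below the dip on all 6 CDS, 6 ES and 4 eMC empty arrays, and Lmod1 on 5 of 6 CDS, 6 of 6 ES and 4 of 4 eMC empty arrays. Among the 3 eMC CIC-DUX4 arrays that had a dip, each lay below it on 2.

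The matricellular gene Ccn1 was lowest in ES tumors. Its brighter probe set ran from 10.75 through 12.42 to 12.97 in CDS tumors and from 8.59 through 9.60 to 11.52 in ES tumors. In culture it was 12.80, 12.47, 13.07 and 13.01 with CIC-DUX4 and 13.39, 13.38, 13.40 and 13.03 with the empty vector. Only ES tumor 46 (11.52) reached the CDS range. The name of this brighter probe set carries a suffix for probes that may also match transcripts of other genes. The second Ccn1 probe set was also lower on average in ES tumors (5.66 to 10.49 in CDS tumors, against 5.52 to 9.39 in ES tumors) but turned the cultures round, with 11.62, 11.40, 11.71 and 11.77 in eMC CIC-DUX4, all above the 10.68, 9.34, 10.65 and 10.71 of eMC empty.

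Ccn2, connective tissue growth factor, was highest in CDS tumors and lowest in ES tumors. CDS tumors ran from 13.82 through 14.61 to 15.68 and ES tumors from 11.38 through 11.63 to 13.68. eMC CIC-DUX4 had 13.07, 12.92, 13.28 and 13.32, and eMC empty 13.68, 13.83, 13.33 and 13.08. Each CDS tumor exceeded each ES tumor and each eMC CIC-DUX4 array, the cultures overlapped, and ES tumor 46 (13.68) stood well above the other ES tumors (11.38 to 12.19).

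Postn, periostin, a matrix protein of activated fibroblasts, was again lowest in ES tumors. CDS tumors ran from 14.16 through 14.69 to 15.51 and ES tumors from 11.14 through 12.96 to 14.04. eMC CIC-DUX4 had 14.10, 13.88, 14.40 and 14.41, and eMC empty 15.70, 15.99, 15.45 and 15.08. Every CDS tumor lay above every ES tumor, and on the deposited scale every eMC CIC-DUX4 array below every eMC empty array; on the quantile scale the cultures were alike (14.81 to 14.91, against 14.83 to 14.85).

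Tgfb1, the ligand, had a dim probe set. It was 3.50, 8.55, 3.47, 7.29, 4.62 and 3.95 in CDS tumors 1 to 6, of which only 2 and 4 were above the dip, and 2.46 to 3.18 in ES tumors, all below it. The cultures had 5.77, 7.22, 2.36 and 2.33 with CIC-DUX4 and 3.07, 3.19, 2.67 and 2.68 with the empty vector. CDS and ES tumors did not overlap on either scale (quantile 4.24 to 6.63 in CDS tumors, against 3.10 to 4.07 in ES tumors).

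**Figure D1:**
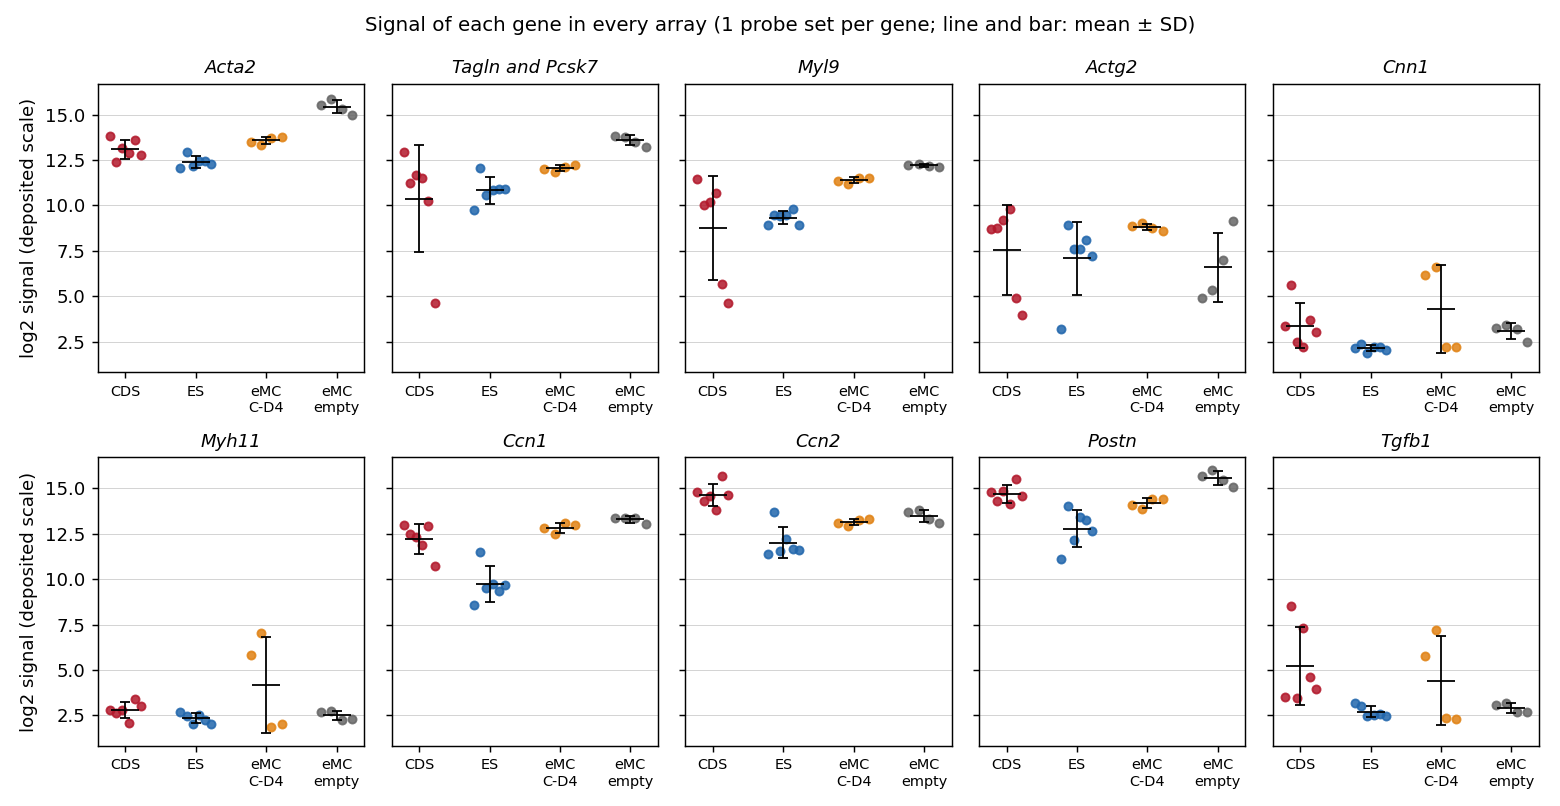
Log2 signal (deposited scale, vertical axis) of each gene on every array, 1 probe set per gene, for CDS tumors (n = 6), ES tumors (n = 6), eMC CIC-DUX4 (C-D4, n = 4) and eMC empty (n = 4); points are arrays, the line and bar the mean ± SD. Acta2 is highest in eMC empty (14.99 to 15.85), Ccn2 and Postn are higher in every CDS than in every ES tumor, and Myh11 stays at 3.38 or less outside eMC CIC-DUX4.

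Cultures with the fusion were set against those with the empty vector to ask what CIC-DUX4 does to these genes within 48 hours. Acta2 averaged 13.58 ± 0.21 in eMC CIC-DUX4, against 15.43 ± 0.36 in eMC empty (SD, n = 4 each). It fell by 1.85 on the log2 scale (SE 0.17, adjusted p = 2.4e-05), which is -3.83 against the median of all probe sets, and was not called after quantile normalization, where the change was -0.58 ± 0.01 (SE). The Tagln and Pcsk7 probe set fell by 1.54 (SE 0.16, adjusted p = 4.24e-05; quantile -0.77, not called; adjusted p = 0.179 as deposited with all 4 groups in 1 fit), and Myl9 changed by -0.82 (adjusted p = 0.00168; quantile -0.42), under the size needed for a call. For these 3 probe sets eMC CIC-DUX4 lay below eMC empty without overlap on both scales, and each change was negative under all 4 scalings tried.

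The other genes changed sign or call with the scaling. Postn fell by 1.35 as deposited (SE 0.19, adjusted p = 0.000218) and had 0.02 on the quantile scale (adjusted p = 0.335). Actg2 was called in opposite directions, 2.23 as deposited (SE 0.83, adjusted p = 0.0452) and -1.13 on the quantile scale (SE 0.16, adjusted p = 8.32e-05), and its deposited call ended when any 1 of 7 of the 8 arrays was left out (all but eMC empty 7; range 1.67 to 3.07, adjusted p up to 0.117), with no filter (0.0538) and with all 4 groups in 1 fit (0.128). Of Ccn1, the second probe set rose on both scales (1.28, SE 0.33, adjusted p = 0.00844; quantile 1.15) but had -0.28 with arrays scaled to the same median, while the brighter one had -0.46 (quantile 0.37) and was not called on either. Against the median of all probe sets, Actg2 had 0.25 and the second Ccn1 probe set -0.70 as deposited. Ccn2 (-0.33, quantile 0.59), Cnn1 (1.20, quantile -0.60) and Tgfb1 (1.52, quantile 0.05) were not called. In all, 2 of 9 probe sets were called higher and 2 lower as deposited, where 43.4% of all probe sets were called higher and 4.18% lower; on the quantile scale 1 was higher and 1 lower, against 7.43% and 6.11% of all. Higher calls made up 91.2% of all calls as deposited, 54.9% after quantile normalization and 99% with arrays centred on their brightest probe sets; with arrays scaled to the same median 0 probe sets were called by limma (5629 higher and 1141 lower at an unadjusted p under 0.05), and Acta2 had -3.41 there (adjusted p = 0.162).

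The related lists leave out the 10 genes themselves. Their counts stand beside 43.4% of all probe sets called higher and 4.18% lower as deposited, and 7.43% and 6.11% on the quantile scale. The TGF-beta and YAP and TEAD shares called higher as deposited lay near that of all probe sets. Among the wider contractile genes, 4 of 17 tested were called higher and 6 lower as deposited (median -0.17), and 0 in either direction by limma on the quantile scale (median -0.35; 3 higher and 11 lower at an unadjusted p under 0.05). The 4 higher ones include Pdlim7, a filament-associated LIM protein (3.88, quantile 0.66), desmin, the muscle intermediate filament (Des, 3.49, quantile -0.02), and Zyx, zyxin of focal adhesions (2.99, quantile -0.94). Of SRF and its coactivators 3 of 5 were called higher, and 0 higher and 1 lower on the quantile scale: Srf itself had 2.98 (adjusted p = 0.00174) and -1.09 on the quantile scale (0.000514), Mrtfb 1.84 (quantile -0.22) and Mrtfa at least 1.10-fold (quantile -0.05, so the deposited direction does not hold there). The TGF-beta pathway had 9 of 19 higher and 0 lower by limma (4 lower at an unadjusted p under 0.05), and 3 higher on the quantile scale. Of its members, the ligand Tgfb2, also listed with the YAP and TEAD genes, was at least 4.34-fold higher (means of 8.97 ± 0.16 with CIC-DUX4 and 3.62 ± 0.46 with the empty vector, SD, n = 4 each; quantile 2.75, adjusted p = 0.000148), Smad7, the inhibitory SMAD, rose by 3.90 as deposited (quantile 0.75, not called) and Eng, the co-receptor endoglin, was at least 2.64-fold higher as deposited (quantile -0.15). Of the YAP and TEAD genes 7 of 15 were higher and 0 lower (2 lower at an unadjusted p under 0.05; quantile 2 and 1); Crim1 rose on both scales (4.65, quantile 2.11), Ankrd1, a classical target, had 2.45 as deposited and -1.28 on the quantile scale, and Tead3 was at least 2.23-fold higher as deposited (quantile -0.68). Of 10 CCN and matricellular genes 1 was higher and 4 lower, and 1 and 2 on the quantile scale: Fap, a protease of activated fibroblasts, rose (3.46, quantile 1.87), Ccn4 fell on both scales (-1.45, quantile -1.46) and Sparc, osteonectin, changed by -1.44 as deposited and 0.03 on the quantile scale.

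CDS tumors were set against eMC CIC-DUX4 to follow these genes from the early culture to the tumor; culture, animal and the time since infection change together between these groups and cannot be told apart. Ccn2 rose in CDS tumors, which averaged 14.64 ± 0.62 (SD, n = 6), against 13.15 ± 0.19 in eMC CIC-DUX4 (SD, n = 4). The change was 1.49 (SE 0.27, adjusted p = 0.00131), 2.43 against all probe sets and 0.87 on the quantile scale (adjusted p = 2.96e-07, under the size for a call). With arrays at the same median it was 2.34 and not called (adjusted p = 0.286). The second Ccn1 probe set fell by 2.39 (SE 0.76, adjusted p = 0.041; quantile -2.50), and the brighter one changed by -0.61 (not called; quantile -1.02, adjusted p = 0.0332, called). Acta2 had -0.48 (adjusted p = 0.208) and -1.10 on the quantile scale (adjusted p = 0.000183, called), and 0.37 with arrays scaled to the same median. Myl9 had -2.61 (SE 1.11, adjusted p = 0.113; quantile -2.25, adjusted p = 0.0169, called) and -0.80 without CDS tumors 5 and 6, and was called with all 4 groups in 1 fit (adjusted p = 0.033). Tgfb1 had 0.81 (adjusted p = 0.689) and was called higher on the quantile scale (1.77, SE 0.38, adjusted p = 0.00211). Postn (0.50, quantile -0.34), Cnn1 (-0.90, quantile 0.02), Actg2 (-1.26, quantile -0.20; 0.29 without CDS tumors 5 and 6) and the Tagln and Pcsk7 probe set (-1.67, quantile -1.49; -0.21 without CDS tumors 5 and 6) were not called. As deposited 1 of 9 probe sets was called higher and 1 lower, against 4.47% and 12.1% of all; on the quantile scale 1 was higher and 4 lower, against 17.1% and 19.0%. Higher calls were 27.0% of all calls as deposited and 47.4% after quantile normalization.

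In the related lists, the contractile genes Tpm2, a tropomyosin (1.73, quantile 1.39), and Csrp2, a LIM protein of smooth muscle (1.24, quantile 1.20), rose on both scales and 0 of 17 fell as deposited (3 at an unadjusted p under 0.05; 3 called on the quantile scale). Of SRF and its coactivators 0 of 5 were called as deposited by limma (0 higher and 1 lower at an unadjusted p under 0.05), and 1 each way on the quantile scale. The TGF-beta pathway had 6 of 19 higher and 5 lower (quantile 7 and 6). Beside these list counts, 4.47% of all probe sets were called higher and 12.1% lower (quantile 17.1% and 19.0%). Tgfb2 fell by 5.65 (3.33 ± 0.96 in CDS tumors and 8.97 ± 0.16 in eMC CIC-DUX4; quantile -4.65), Tgif1, a SMAD corepressor, fell by 4.77 (quantile -4.30) and Bambi, a decoy receptor, fell by 3.69 (quantile -2.99). Of the YAP and TEAD genes 1 of 15 was higher and 4 lower (quantile 2 and 5), led by F3, tissue factor, with -7.16 (quantile -7.90), and the kinase gene Lats2 with -4.21 (quantile -2.98). Of the CCN and matricellular list, which does not hold Ccn1, Ccn2 or Postn, 1 of 10 was called higher, fibronectin (Fn1, 1.20; quantile 0.46, not called), and 0 lower by limma (3 at an unadjusted p under 0.05).

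Against eMC empty, CDS tumors were lower in Acta2, Myl9 and the Tagln and Pcsk7 probe set and higher in Ccn2. The fusion, culture or animal, and the time since infection differ together between these groups and cannot be told apart. A fall or rise here is a difference of means. Acta2 averaged 13.10 ± 0.53 in CDS tumors (SD, n = 6) and 15.43 ± 0.36 in eMC empty (n = 4), and fell by 2.33 (SE 0.27, adjusted p = 3.54e-06; -3.22 against all probe sets; quantile -1.69). It was called lower under all 4 scalings. Myl9 changed by -3.42 (SE 1.03, adjusted p = 0.0249; quantile -2.67) and by -1.61 without CDS tumors 5 and 6 (adjusted p = 0.00341). The Tagln and Pcsk7 probe set changed by -3.21 (SE 0.99, adjusted p = 0.0285; quantile -2.26) and by -1.75 without those 2 tumors (adjusted p = 0.00292). Both were not called with arrays at the same median (-4.13 and -3.92, adjusted p = 0.114 and 0.119) or centred on the brightest probe sets (-3.08 and -2.88, adjusted p = 0.0604 and 0.0646). Both also lost the call without CDS tumor 5 or without eMC empty 5 (Myl9 -3.95 to -2.59 over all arrays left out in turn, adjusted p up to 0.0595; Tagln and Pcsk7 -3.73 to -2.07, up to 0.0675). Ccn2 changed by 1.16 (SE 0.28, adjusted p = 0.00665; quantile 1.46), which is 0.28 against the median of all probe sets. It was under the size for a call without CDS tumor 5 (0.95) and without both 5 and 6 (0.90), and had 0.45 with arrays at the same median (adjusted p = 0.62). Postn had -0.85 (adjusted p = 0.0146; quantile -0.32), just under that size, and was called lower without CDS tumors 5 and 6 (-1.03, adjusted p = 0.00492), without CDS tumor 5 (-1.02) and without eMC empty 7. The brighter Ccn1 probe set had -1.07 (adjusted p = 0.0551; quantile -0.65) and was called lower without CDS tumor 1 or 5, and the second had -1.10 (adjusted p = 0.319; quantile -1.35, adjusted p = 0.00388, called). Tgfb1 had 2.33 (adjusted p = 0.105; quantile 1.82, adjusted p = 0.00169, called), Actg2 0.97 (quantile -1.33) and Cnn1 0.29 (quantile -0.58). As deposited 1 of 9 was called higher and 2 lower, against 13.2% and 4.89% of all probe sets; on the quantile scale 2 were higher and 3 lower, against 18.2% and 19.9%. Higher calls were 73.0% of all calls as deposited, 47.8% after quantile normalization, 59.3% with arrays scaled to the same median and 85.5% with arrays centred on their brightest probe sets.

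Of the contractile genes 1 of 17 rose against eMC empty, Csrp2 (2.82, quantile 2.06), and 3 fell, among them Vcl, vinculin of focal adhesions (-2.12, quantile -1.60), and Cald1, caldesmon (-1.42, quantile -0.83, not called there). Beside the list counts of this comparison, 13.2% of all probe sets were called higher and 4.89% lower (quantile 18.2% and 19.9%). Of SRF and its coactivators 0 of 5 were called as deposited by limma (1 higher and 0 lower at an unadjusted p under 0.05; quantile 1 higher and 1 lower). The TGF-beta pathway had 6 of 19 higher and 1 lower (quantile 6 and 5): Eng was higher by at least 13.6-fold (quantile 3.92), Tgfb3 rose by 4.93 (quantile 3.10) and Smad7 by 4.73 (quantile 2.39). The YAP and TEAD genes had 2 of 15 higher and 2 lower (quantile 3 and 5), with F3 at -7.69 (quantile -7.80), Crim1 at 3.79 (quantile 1.94) and Amotl2 at -2.47 (quantile -2.23). Of the 10 in the CCN and matricellular list, again without Ccn2, 0 rose (1 at an unadjusted p under 0.05) and 3 fell (quantile 1 and 2): Lox, lysyl oxidase (-2.04, quantile -1.39), Ccn4 (-1.79, quantile -1.47) and Thbs2, a thrombospondin (-1.33, quantile -0.84, not called there).

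ES tumors were lower than eMC empty in most of these genes. Tumor or primary cell and animal or culture differ together here and cannot be told apart, and the start of the ES tumors is not given. A fall or rise is a difference of means. Acta2 averaged 12.41 ± 0.32 in ES tumors (SD, n = 6) and 15.43 ± 0.36 in eMC empty (n = 4), and fell by 3.03 (SE 0.20, adjusted p = 4.67e-07; quantile -2.23). The brighter Ccn1 probe set fell by 3.56 (SE 0.44, adjusted p = 5.25e-05; quantile -3.80) and the second by 2.98 (adjusted p = 0.00412; quantile -3.98). Myl9 fell by 2.88 (SE 0.26, adjusted p = 4.66e-06; quantile -3.48), the Tagln and Pcsk7 probe set by 2.75 (SE 0.35, adjusted p = 6.95e-05; quantile -2.53) and Postn by 2.77 (SE 0.45, adjusted p = 0.000382; quantile -1.92). All of these were called lower under the 4 scalings. Ccn2 fell by 1.47 (SE 0.39, adjusted p = 0.00868) and was not called on the quantile scale (-0.97, adjusted p = 0.0694). Cnn1 had -0.94 (adjusted p = 0.00148; quantile -1.15, called), with both groups below the dip, and was called as deposited without eMC empty 7 (-1.15). Actg2 had 0.51 (adjusted p = 0.727) and -2.15 on the quantile scale (adjusted p = 0.0167, called), and Tgfb1 -0.19 (quantile 0.22), neither called as deposited. In all 0 of 9 probe sets were called higher by limma (0 at an unadjusted p under 0.05) and 6 lower as deposited, against 25.8% and 9.77% of all probe sets, and on the quantile scale 0 and 7, against 18.0% and 19.0%. The median over the 9 was -2.77 (quantile -2.15), beside 0.41 (quantile -0.02) over all probe sets. Higher calls were 72.6% of all calls as deposited, 48.7% after quantile normalization and 84.5% with arrays centred on their brightest probe sets.

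The CCN and matricellular list went the same way, with 0 of 10 higher (0 at an unadjusted p under 0.05) and 8 lower (quantile 0 and 7) and a median of -2.97. Beside the list counts of this comparison, 25.8% of all probe sets were called higher and 9.77% lower (quantile 18.0% and 19.0%). Ccn3 changed by -5.96 (quantile -5.61), Ccn5 by -5.41 (quantile -5.76) and Ccn4 by -5.04 (quantile -5.48). The contractile list was divided, with 2 of 17 higher and 7 lower (quantile 0 and 7). Vcl fell by 2.63 (quantile -2.30), while Des (4.74, quantile 2.74) and Pdlim7 (3.86, quantile 0.77) rose as deposited and were not called on the quantile scale. Des also marks skeletal muscle, whose marker sums are given with the other cell types. Of SRF and its coactivators 2 of 5 were higher and 1 lower (quantile 1 and 1): Srf rose by 4.06 (quantile 1.06), Mrtfb by 1.99 (quantile 0.03, not called), and Fhl2, an SRF-binding LIM protein, fell by 4.46 (quantile -5.04). The TGF-beta pathway had 4 of 19 higher and 4 lower (quantile 1 and 8), with Ltbp2, a latent TGF-beta binding protein, at -4.21 (quantile -4.64), the co-receptor Tgfbr3 at -4.17 (quantile -4.43) and Smad3 at 4.02 (quantile 2.45). The YAP and TEAD genes had 2 of 15 higher and 5 lower (quantile 1 and 4), with F3 at -5.25 (quantile -5.52), Tead2 at 4.26 (quantile 2.37) and Lats2 at -3.15 (quantile -4.26).

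**Figure D2:**
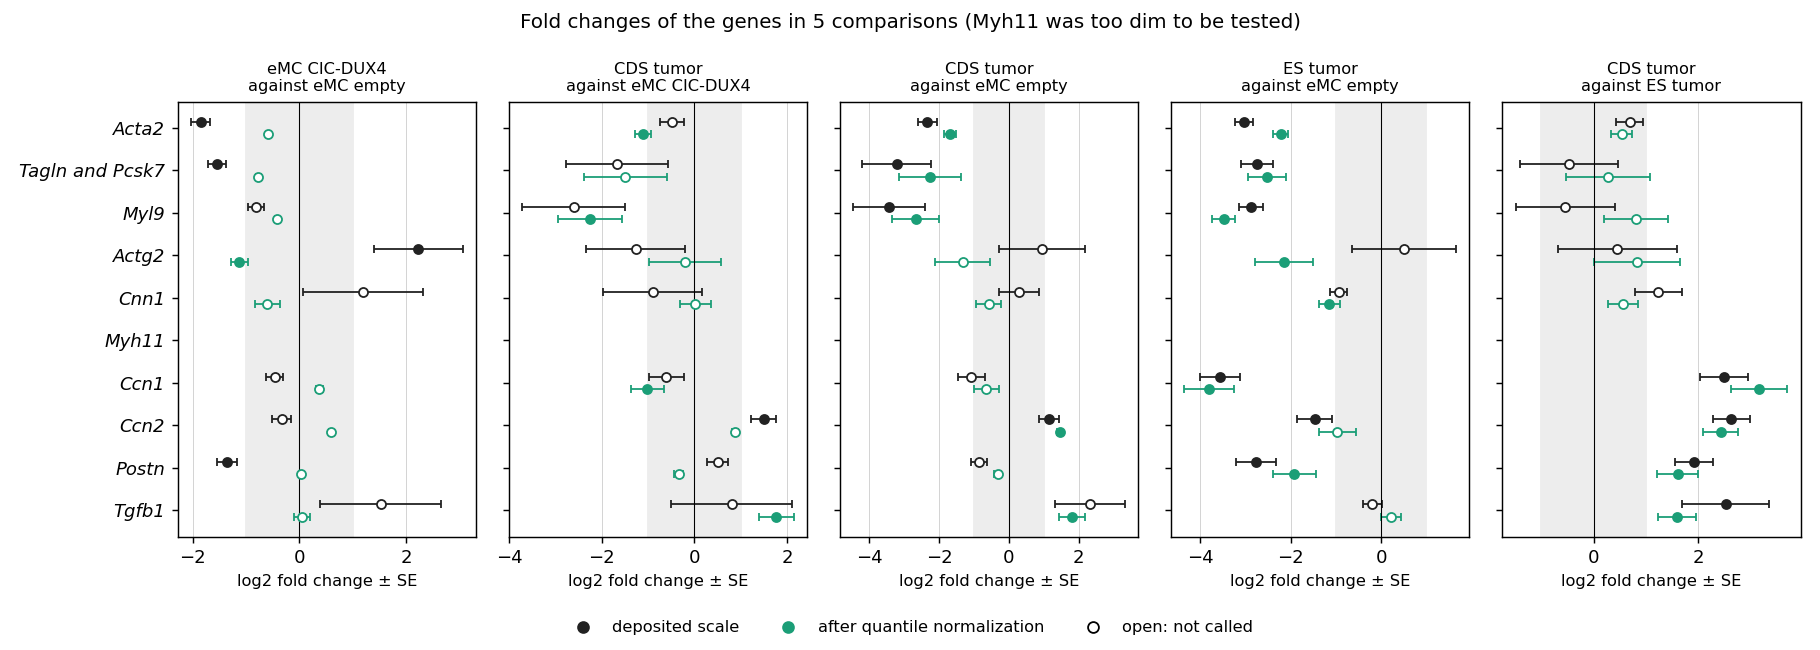
Log2 fold change ± SE (horizontal axes) of each gene in the 5 comparisons, as deposited (black) and after quantile normalization (green); filled points were called, open points were not, and the grey band marks changes under 1 in size. Acta2 lies left of 0 on both scales in each comparison with eMC empty, and Ccn1, Ccn2, Postn and Tgfb1 are called higher in CDS than in ES tumors.

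The comparison of CDS with ES tumors asks how the tumor types differ. The matricellular genes and Tgfb1 were higher in CDS tumors, and the contractile genes were not called. Ccn2 averaged 14.64 ± 0.62 in CDS tumors and 12.01 ± 0.86 in ES tumors (SD, n = 6 each), a rise of 2.63 (SE 0.35, adjusted p = 2.7e-05; quantile 2.43). The brighter Ccn1 probe set averaged 12.23 ± 0.83 in CDS tumors and 9.73 ± 0.97 in ES tumors and rose by 2.49 (SE 0.47, adjusted p = 0.000897; quantile 3.16). The second Ccn1 probe set had 1.87 (adjusted p = 0.116; quantile 2.63, adjusted p = 0.000492, called). Postn averaged 14.70 ± 0.48 in CDS tumors and 12.79 ± 1.03 in ES tumors and rose by 1.91 (SE 0.36, adjusted p = 0.00106; quantile 1.60). Tgfb1 had a higher mean in CDS tumors, 5.23 ± 2.16 against 2.71 ± 0.32 in ES tumors. The fitted change was 2.52 (SE 0.84, adjusted p = 0.0393) and the quantile change 1.59 (adjusted p = 0.00273). With 4 of 6 CDS tumors and all ES tumors below the dip, no bound on the fold is given. The deposited call was lost without CDS tumor 4 or 5 or any single ES tumor (1.86 to 2.87, adjusted p up to 0.0791), without both CDS tumors 5 and 6 (adjusted p = 0.0516), with an offset of 16 (1.53, adjusted p = 0.0929) and with arrays centred on the brightest probe sets (2.48, adjusted p = 0.0584). The calls of Ccn1, Ccn2 and Postn held without each array in turn (Ccn1 2.27 to 2.85, Ccn2 2.42 to 2.97, Postn 1.58 to 2.16) and without CDS tumors 5 and 6. ES tumor 46 was the ES tumor nearest to the CDS tumors in Ccn1, Ccn2 and Postn. It also had the highest pericyte (14.02), endothelium (12.37) and fibroblast and mesenchyme (15.43) marker sums of the ES tumors. The part of such cells was not tested.

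Acta2 had 0.69 (SE 0.26, adjusted p = 0.062; quantile 0.54, adjusted p = 0.0432, under the size for a call) and -0.32 with arrays scaled to the same median. Actg2 had 0.46 (quantile 0.83), and -0.33 without ES tumor 41. Cnn1 had 1.24 (adjusted p = 0.0542; quantile 0.57), and was called without CDS tumor 3 or 4 (0.79 to 1.47 over all arrays left out in turn). Myl9 had -0.54 (SE 0.95, adjusted p = 0.697) and the Tagln and Pcsk7 probe set -0.47 (SE 0.93, adjusted p = 0.735), and both turned positive on the quantile scale (0.82 and 0.28, not called). Without CDS tumors 5 and 6, Myl9 was called higher in CDS tumors (1.27, adjusted p = 0.0133), and the Tagln and Pcsk7 probe set had 1.00 (adjusted p = 0.0962). As deposited 4 of 9 probe sets were called higher and 0 lower by limma (0 lower at an unadjusted p under 0.05), against 11.1% and 8.71% of all probe sets; on the quantile scale 5 were higher and 0 lower, against 15.2% and 15.7%. The median over the 9 was 1.87 (quantile 1.59), beside 0.21 (quantile -0.03) over all. With arrays scaled to the same median, where the median of all probe sets was -0.80 and 18.0% of calls were higher (56.1% as deposited, 49.2% quantile), 0 of the 9 were called by limma (3 higher and 0 lower at an unadjusted p under 0.05), with Ccn2 at 1.62 and Ccn1 at 1.48.

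In the CCN and matricellular list 9 of 10 genes were called higher in CDS tumors and 0 lower (0 lower at an unadjusted p under 0.05; quantile 8 and 0), with a median of 2.16 (quantile 2.45). Ccn3 averaged 12.10 ± 1.01 in CDS tumors and 6.21 ± 3.94 in ES tumors, a rise of 5.89 (adjusted p = 0.0029; quantile 5.75). Ccn5 rose by 5.23 (adjusted p = 0.0021; quantile 4.85), and Tnn, tenascin N, was higher by at least 2.69-fold (quantile 2.96). Fap, the exception and named for that after its value was seen, had -0.15 (quantile 0.90). The TGF-beta pathway had 9 of 19 higher and 2 lower (quantile 11 and 2). Beside both lists, 11.1% of all probe sets were called higher and 8.71% lower (quantile 15.2% and 15.7%). The ligand Tgfb3 averaged 12.21 ± 0.31 in CDS tumors and 6.84 ± 2.42 in ES tumors, a rise of 5.37 (adjusted p = 0.000114; quantile 6.09). Ltbp2 rose by 5.30 (quantile 5.48) and Smad7 by 2.79 (quantile 3.51), Tgif1 fell by 5.16 (4.73 ± 1.78 in CDS tumors and 9.89 ± 0.36 in ES tumors; quantile -5.04), and the receptor Tgfbr2 was not called (0.27, quantile 0.27).

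In the contractile list 2 of 17 were higher and 1 lower (quantile 4 and 1), beside 11.1% and 8.71% of all probe sets. Tpm2 (2.25, quantile 2.44) and Csrp2 (1.82, quantile 2.33) rose, and Mylk, myosin light chain kinase, which phosphorylates Myl9, fell by 1.94 (quantile -1.68). Of the SRF list Srf fell by 2.55 (adjusted p = 0.0448; quantile -1.28), while Mrtfa had 2.76 (adjusted p = 0.0517; quantile 2.55, called) and Mrtfb -1.55 (quantile -0.33), so 0 of 5 were higher (2 at an unadjusted p under 0.05) and 1 lower (quantile 2 and 1). Of the YAP and TEAD genes 3 of 15 were higher and 2 lower (quantile 5 and 3): Tead2 fell by 2.41 (quantile -2.02), Ajuba, a LIM protein that binds LATS kinases, fell by 2.54 (quantile -2.03), and Tead4 had 2.50 (quantile 1.96) with all ES tumors below the dip. Yap1 (0.62, quantile 0.50), Wwtr1, which encodes TAZ (0.98, quantile 0.96), and the target Ankrd1 (-0.46, quantile -0.62) were not called.

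**Figure D3:**
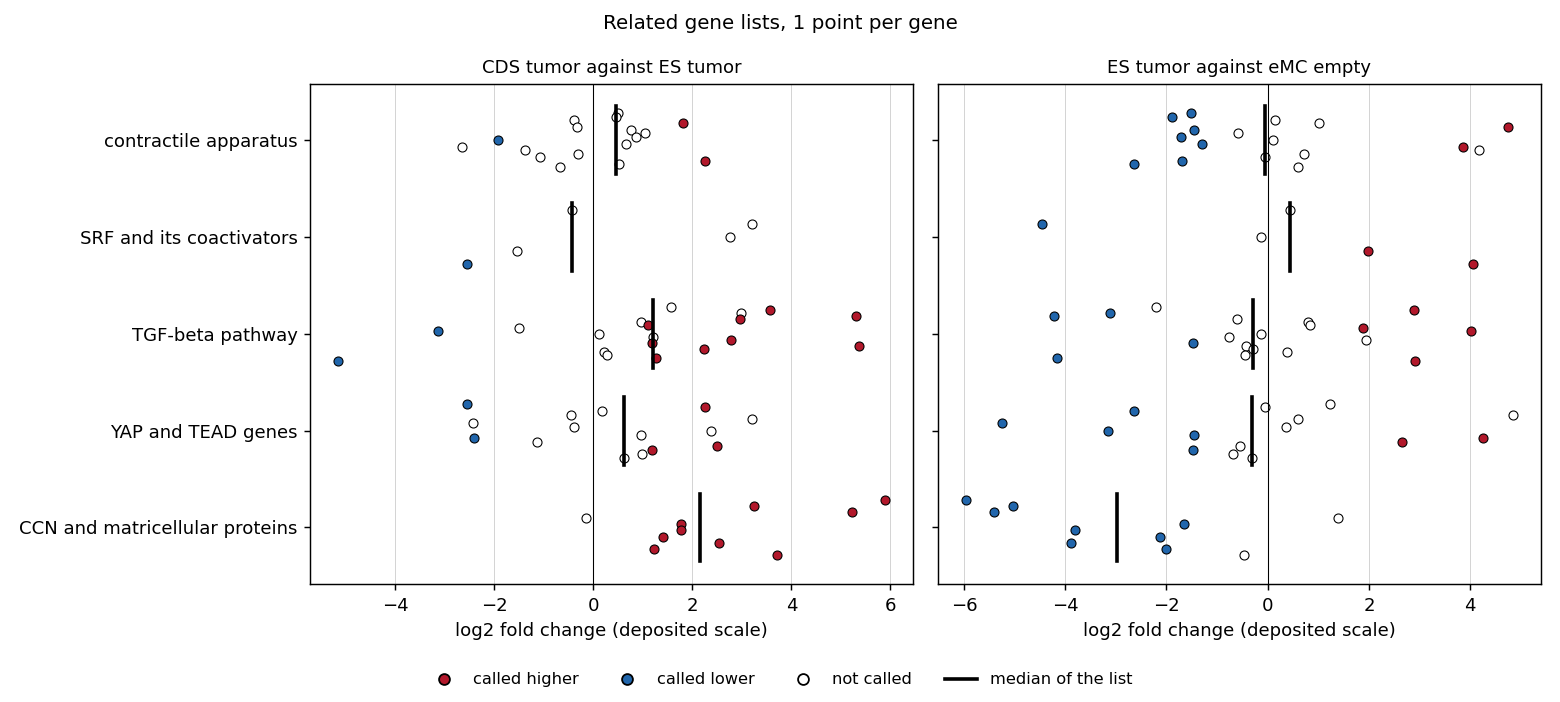
Log2 fold change (deposited scale, horizontal axes) of each tested gene in 5 related lists, for CDS against ES tumors and for ES tumors against eMC empty; red points were called higher, blue lower, white not called, and the black line is the list's median. The CCN and matricellular genes lie to the right in the left panel (9 of 10 called higher) and to the left in the right panel (8 of 10 called lower).

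Cells that make these genes in normal tissue include pericytes, and markers of other cell types moved between the groups. The summed signal of the 6 pericyte markers measured of 8 listed was 14.28 to 16.02 (log2) in CDS tumors, 11.97 to 14.02 in ES tumors, 11.36 to 11.59 in eMC CIC-DUX4 and 6.98 to 10.12 in eMC empty. That of 10 endothelium markers was 12.27 to 13.30 in CDS tumors, 9.53 to 12.37 in ES tumors, 6.60 to 10.30 in eMC CIC-DUX4 and 5.79 to 6.37 in eMC empty, where all 10 markers were below the dip on every array. The dip itself lay higher on eMC empty 4, 5, 6 and 7 (7.36, 8.19, 6.48 and 5.39) than on eMC CIC-DUX4 5, 7 and 8 (3.36, 4.29 and 4.45). Every CDS tumor lay above every ES tumor in the pericyte sum on both scales. That sum was carried by Rgs5, a regulator of G protein signalling, which averaged 14.80 ± 0.67 in CDS tumors and 12.61 ± 0.73 in ES tumors (SD, n = 6 each). Over the 6 markers 2 were called higher in CDS tumors, with a median of 0.37 (quantile 3 higher, 1 lower, median 1.13). Of all probe sets 11.1% were called higher and 8.71% lower (quantile 15.2% and 15.7%). Mcam (9.49 in CDS tumors, 9.53 in ES tumors), Kcnj8 (7.16 and 7.95) and Higd1b (3.28 and 3.63) had the lower deposited mean in CDS tumors. In the endothelium sum every CDS tumor but number 5 (12.27, against 12.37 in ES tumor 46) lay above every ES tumor as deposited, and all 6 did on the quantile scale (12.74 or more, against 11.73 or less). Cdh5 was the brightest of these markers in CDS tumors (12.075, against 8.70 in ES tumors). Esam (10.36 and 9.63) and Cldn5 (7.32 and 7.28) differed less. Of 9 endothelium markers tested 2 were called higher and 0 lower by limma (0 lower at an unadjusted p under 0.05). On the quantile scale 5 were called higher and 0 lower. Ccn1, Ccn2, Postn and Tgfb1 were higher in CDS tumors too. Both sums were lowest in eMC empty as deposited, where Acta2 was highest. On the quantile scale the endothelium sums of the cultures overlapped (6.58 to 6.90 in eMC CIC-DUX4, 6.53 to 6.69 in eMC empty), and the pericyte sums lay closer together (10.35 to 10.56 in eMC CIC-DUX4, 9.63 to 10.17 in eMC empty). The 9 fibroblast and mesenchyme markers summed to 15.36 to 16.92 in CDS tumors, 13.59 to 15.43 in ES tumors, 15.87 to 16.28 in eMC CIC-DUX4 and 16.60 to 17.41 in eMC empty. In eMC empty the collagen Col3a1 and the proteoglycan Dcn were the brightest of them (15.94 and 15.10), while Col1a2 lay below the dip on 4 of 4 arrays, Pdgfra and Twist1 on 2 and Thy1 on 1. Col3a1 was the brightest of the 9 markers in the tumors as well (means of 15.49 in CDS and 13.93 in ES tumors). In CDS against ES tumors 3 of the 9 were called higher and 1 lower (quantile 5 and 1). Pdgfra was lower in CDS tumors (4.30, against 9.24), and Dcn had 11.99 in CDS and 11.82 in ES tumors. For the smooth muscle markers other than Acta2 and Tagln, 5 measured of 6 listed, between 3 and 5 were below the dip on each CDS tumor, 4 or 5 on each ES tumor and all 5 on each eMC empty array. The summed signal of that list ran from 5.18 to 12.19 in CDS tumors and from 4.40 to 12.67 in ES tumors, and its high values were on tumors with high skeletal muscle marker sums, as with CDS tumors 3 and 4 (12.19 and 11.50, skeletal muscle 18.67 and 17.29) and ES tumors 46 and 48 (12.02 and 12.67, skeletal muscle 17.59 and 18.02). On these 4 tumors the other 4 markers were below the dip, so the sum is that of Synpo2, an actin-binding protein also found in skeletal muscle. CDS tumor 5 had a skeletal muscle sum of 18.05 (quantile 17.00) and a smooth muscle sum of 6.85 (quantile 9.42). The skeletal muscle sum of 12 markers ranged from 10.22 to 18.67 in CDS tumors and from 5.79 to 18.02 in ES tumors, beside 12.98 to 13.05 in eMC CIC-DUX4 and 13.87 to 13.96 in eMC empty. The 8 macrophage markers summed to 13.46 to 16.08 in CDS tumors, 13.78 to 15.41 in ES tumors, 14.31 to 14.68 in eMC CIC-DUX4 and 14.44 to 14.99 in eMC empty. Lyz2 was the brightest of them in each group (means of 14.285, 14.278, 14.118 and 14.614 in that order). Other macrophage markers differed more between the groups, such as Mrc1 (12.30, 11.77, 9.17 and 5.86, and on the quantile scale 12.32, 11.67, 7.96 and 8.24). The part of other cells in the results was not tested.

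**Figure D4:**
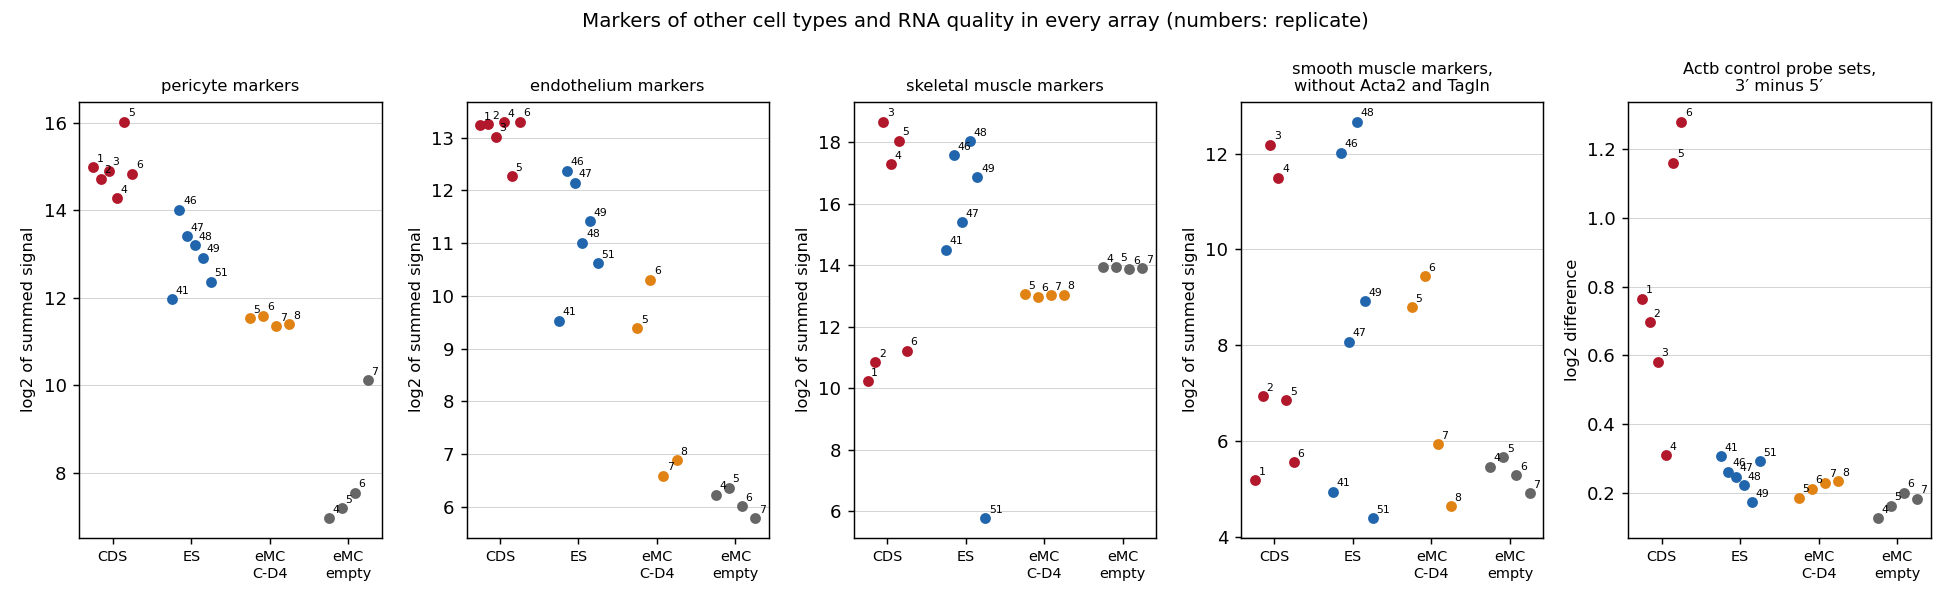
Log2 of the summed signal of marker genes (first 4 panels) and the log2 excess of 3′ over 5′ signal of the Actb control probe sets (last panel) on each array, with the replicate number beside each point, for CDS tumors, ES tumors, eMC CIC-DUX4 (C-D4) and eMC empty. Pericyte sums are 14.28 to 16.02 in CDS tumors, against 11.97 to 14.02 in ES tumors, and CDS tumors 5 and 6 have the highest Actb excess (1.16 and 1.28).

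Profiles over all 20 arrays were compared by the mean absolute difference of quantile-normalized values, each gene centred on its own mean, among 12329 genes. Nearest to Acta2 was Vcl, vinculin (0.25), with means of 11.64, 10.95, 12.89 and 13.24 in CDS tumors, ES tumors, eMC CIC-DUX4 and eMC empty, followed by Slc30a4, Gm41724, Krcc1 and S100a6 (0.259 to 0.264). Nearest to Postn was Col5a2, a chain of type V collagen (0.18; means of 14.12, 12.58, 14.68 and 14.51 in that order), followed by Fstl1, Nrp1, Palld and Fndc3b (0.20 to 0.224). The arrays share their groups and their normalization, so this is a description.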

How the data were processed

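Expression was measured in 20 mouse samples on Affymetrix arrays of perfect-match probes. The authors deposited log2 signals, and MAS5 is the method that the submitters' processing notes give; no source used here states its version, scaling or background settings. Values were returned to the linear scale, 104 control probe sets left out, and log2(signal + 1.42) used, the offset being 0.25 of the median array median. The lowest density between the dim and bright part of each array (bandwidth 0.35) gave the dip. Where every array of the dimmer group lay below it, a fold is a lower bound: the brighter mean against the mean of the higher of dip and signal. The brighter mean was taken as it stands, so the bound is not firm where arrays of that group also lay below their dip. Probe sets above their array's median in at least 4 of 20 arrays were kept (26897 of 45037), and each comparison was fitted on its 2 groups, two-sided, in limma 3.58.1 under R 4.3.3 by lmFit and a trended eBayes, with Benjamini-Hochberg adjustment over all of them. The design had allowed for linear or log2 files; the log2 form was found.

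Of the probe sets, 28898 had 1 gene symbol, 551 several and 15588 none. Each gene was represented by its probe set of the highest mean. Every one of the 10 genes is named; of each other list the called genes of largest change, up to 3 per comparison, and a fixed set of regulators, plus Fap, chosen after its value was seen. The genes and lists were chosen with earlier results of these data known. Sequences are from RefSeq. Thbs1, Smtn, Axl and other listed genes without a probe set of their own were not analysed here. Alternatives were other scalings, offset, filter, fit, probe set summary, each array left out in turn, the replicate number as a block and, chosen after seeing the data, CDS tumors 5 and 6 left out. Simulated data with known changes were used to test the steps.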

Additional observations from a re-analysis of the deposited data

Results flagged for a closer look

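In groups of 4 or 6 arrays, a highest or lowest value was singled out where its gap to the nearest array was large against the group's range (Dixon's test at the 95% level). Of 52 groups tested, 9 were singled out; chance alone singles out about 1 in 20 groups. Values are log2 signals as deposited.

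Among tumors, Actg2 in ES tumor 41 was low (3.19, nearest 7.21), and also on the quantile scale (4.11). Ccn2 in ES tumor 46 was high (13.68, nearest 12.19; quantile 13.88). The second Ccn1 probe set in CDS tumor 5 was low (5.66, nearest 9.03; quantile 8.35), as was the Tagln and Pcsk7 probe set in CDS tumor 6 (4.66, nearest 10.24; quantile 6.74).

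Among cultures, eMC CIC-DUX4 6 stood high in the dim Acta2 probe set (5.34, nearest 1.57; quantile 2.00) and in the dimmer Myh11 probe set (6.32, nearest 2.22; quantile 2.63). eMC empty 7 was low in the dim Acta2 probe set (1.83, nearest 2.18; quantile 2.12) and in the brighter Ccn1 probe set (13.03, nearest 13.38; quantile 12.89). On the quantile scale both lay inside the range of their group (2.01 to 2.35 and 12.69 to 13.01). The second Ccn1 probe set was low in eMC empty 5 (9.34, nearest 10.65; quantile 10.63).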

How the results depend on the processing

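Of all probe sets, 12785 were called in eMC CIC-DUX4 against eMC empty (quantile 3643, same median 0, 1 probe set per gene 6305). CDS tumors against eMC CIC-DUX4 gave 4456 (quantile 9713, same median 1380, 1 probe set per gene 2200, without the 3 arrays of high median 1902). CDS tumors against eMC empty gave 4863 (10254, 1780 and 2515), ES tumors against eMC empty 9579 (1 probe set per gene 5058), and CDS against ES tumors 5338 (quantile 8291, 1 probe set per gene 2569). With 1 probe set per gene fewer are tested; otherwise the cause was not tested. Leaving out each array gave 2097 to 7219 for CDS tumors against eMC CIC-DUX4 (eMC CIC-DUX4 5, 6 and 7 and CDS tumor 2 moved it most), 2774 to 6103 against eMC empty (eMC empty 4, 5 and 6) and 3550 to 6184 for CDS against ES tumors (ES 51).

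Directions turned as follows. With quantile normalization, eMC CIC-DUX4 against eMC empty had Cnn1 -0.60, Actg2 -1.13, Ccn1 0.37, Ccn2 0.59 and Postn 0.023; CDS tumors against eMC CIC-DUX4 had Cnn1 0.021 and Postn -0.34; against eMC empty CDS tumors had Cnn1 -0.58 and Actg2 -1.33 and ES tumors Actg2 -2.15 and Tgfb1 0.22; CDS against ES tumors had Myl9 0.82 and Tagln and Pcsk7 0.28. With arrays at the same median, eMC CIC-DUX4 against eMC empty had Cnn1 -0.36 and Tgfb1 -0.039, CDS tumors against eMC CIC-DUX4 Acta2 0.37 and Ccn1 0.24, against eMC empty Cnn1 -0.42 (CDS) and Tgfb1 0.11 (ES), and CDS against ES tumors Acta2 -0.32 and Actg2 -0.56. Centred on the brightest probe sets, Ccn1 had 0.058 and Ccn2 0.19 in eMC CIC-DUX4 against eMC empty, Tgfb1 0.18 in ES tumors against eMC empty. The mean of both Ccn1 probe sets gave 0.41 between the cultures. With the 3 arrays of high median left out, Cnn1 (-0.88) and Tgfb1 (-0.56) turned between the cultures, and Cnn1 in CDS tumors against eMC CIC-DUX4 (0.74) and eMC empty (-0.15). Without CDS tumors 5 and 6, Actg2 (0.29, against eMC CIC-DUX4), Myl9 (1.27) and Tagln and Pcsk7 (1.00, both against ES tumors) turned. Leaving out 1 array at a time turned Actg2 in CDS against ES tumors (-0.33 to 1.17) and in ES tumors against eMC empty (-0.053 to 1.35), Cnn1 in CDS tumors against eMC empty (-0.15 to 0.53), and Myl9 (-1.07 to 0.29) and Tagln and Pcsk7 (-0.98 to 0.68) in CDS against ES tumors.

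Same-numbered eMC samples did not deviate together in every pair as deposited (correlations 0.41, -0.18 and 0.41). On the quantile scale the correlations were 0.012, -0.0015 and 0.00027. The numbers were therefore not taken to pair samples. With the number as a replicate block, eMC CIC-DUX4 against eMC empty gave 15239 calls and Actg2 was not called (1.73, adjusted p = 0.0743). CDS tumors against eMC CIC-DUX4, which share only the numbers 5 and 6, gave 16696 calls in the replicate block, with Actg2 (-4.50), Myl9 (-6.10), Postn (1.05) and Tagln and Pcsk7 (-4.47) called and Tgfb1 turned to -2.21. CDS tumors against eMC empty gave 4332 calls in the replicate block, with the brighter Ccn1 probe set called (-1.53) and Cnn1 turned to -0.34. The offset, the filter and a fit of all 4 groups turned 0 of the genes' directions. Signals below the dip limit Tgfb1, Cnn1 and Myh11.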
